A study of Mus musculus with 16 samples.

Results

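The variable regions are stretches of H3K4me3 in mouse hematopoietic stem cells that were held by all 4 H3K4me3 peak lists and that lay under H3K27me3 in some libraries and not in others. Peaks of the 4 H3K4me3 lists were merged where they overlapped or touched, which gave 20660 regions, of which 14489 had a peak in all 4 lists. Of these, 1292 (8.92%) shared at least 1 bp with an H3K27me3 island in 1 to 4 of the 5 H3K27me3 libraries used and are described here. A further 1421 were touched in all 5 libraries (stable regions) and 11776 in none (free regions). Members were therefore chosen by measured H3K27me3, so their distribution over the H3K27me3 libraries and ages is a description with no test. The rule also fixed that each member had H3K4me3 in all 4 lists, but it did not use H3K4me3 length or score, H3K36me3 or the islands of the H3K27me3 library left out.

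The cells were bone marrow stem cells of C57BL/6 mice, gated as SP-KSL-CD150+, which combines efflux of a dye with surface markers. Old mice were 24 months and young mice 4 months of age. There were 3 old and 3 young libraries for H3K27me3, 3 old and 3 young for H3K36me3, and 2 old and 2 young for H3K4me3, in peak lists of chromatin immunoprecipitation with sequencing. Each sample is labelled as technical replicate of a numbered biological replicate (1 to 3 for H3K27me3, 4 to 6 for H3K36me3, 7 and 8 for H3K4me3), and the labels do not say which samples shared animals or how many mice were pooled. P-values therefore reflect only how these samples differ from each other, and some of that spread may be technical. A second number in the sample titles (16 to 21), unexplained in the labels, is called the title number here.

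H3K4me3 is laid down at the starts of active and poised genes, often over CpG-rich promoters. H3K27me3 is written by Polycomb repressive complex 2 and marks silenced chromatin. Promoters that carry both marks are called bivalent and are known from stem cells, where many of them belong to regulators of other cell fates. H3K36me3 follows elongating RNA polymerase II and lies over the bodies of transcribed genes, and Polycomb repressive complex 2 acts poorly on nucleosomes that carry it. Marks called in the same stretch of a peak list need not lie on the same allele or in the same cell. The deposited positions are on the mm9 build and no annotation of that build was used, so regions are given by position, no gene, exon or promoter is named, no sequence is shown, and the sorted identity of the cells could not be checked against marker genes.

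The H3K27me3 lists of the 5 libraries used held 17752 to 47197 islands over 123 to 179 Mb. Young H3K27me3 replicate 1 is not among them because only 17.4% of its islands shared a base with an island of the 5 others, against 65.1 to 90.6% for each of those 5, and young H3K36me3 replicate 4, with 6399 peaks against 39362 to 84437 in the other 5 lists, also stood apart. Read depth is not in the lists, so no counting error can be given for a touched or untouched region. A region can be untouched because H3K27me3 was low there or because the library did not reach the caller's threshold, and peak lists cannot tell these apart.

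All 30 possible combinations of 1 to 4 libraries occurred among the variable regions. A single library touched 455 of them (35.2%), 2 libraries touched 315 (24.4%), 3 touched 219 (16.95%) and 4 touched 303 (23.5%). The most frequent combination was both young libraries without any old one, with 155 regions. It was followed by young replicate 3 alone with 142 and by all but old replicate 1 with 112. The reverse combination, all 3 old libraries without a young one, held 24 regions. It asks for 3 touching and 2 untouched libraries, against 2 and 3 for the young pair, so these counts are not alike. Without old replicate 1, which leaves 2 libraries per age, 181 regions were touched by both young libraries only and 48 by both old ones only. The counts were 200 and 44 without old replicate 2, and 220 and 35 without old replicate 3. Each of the other 9 pairs of libraries touched 11 to 24 regions, against the 155 of the young pair.

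**Figure D1:**
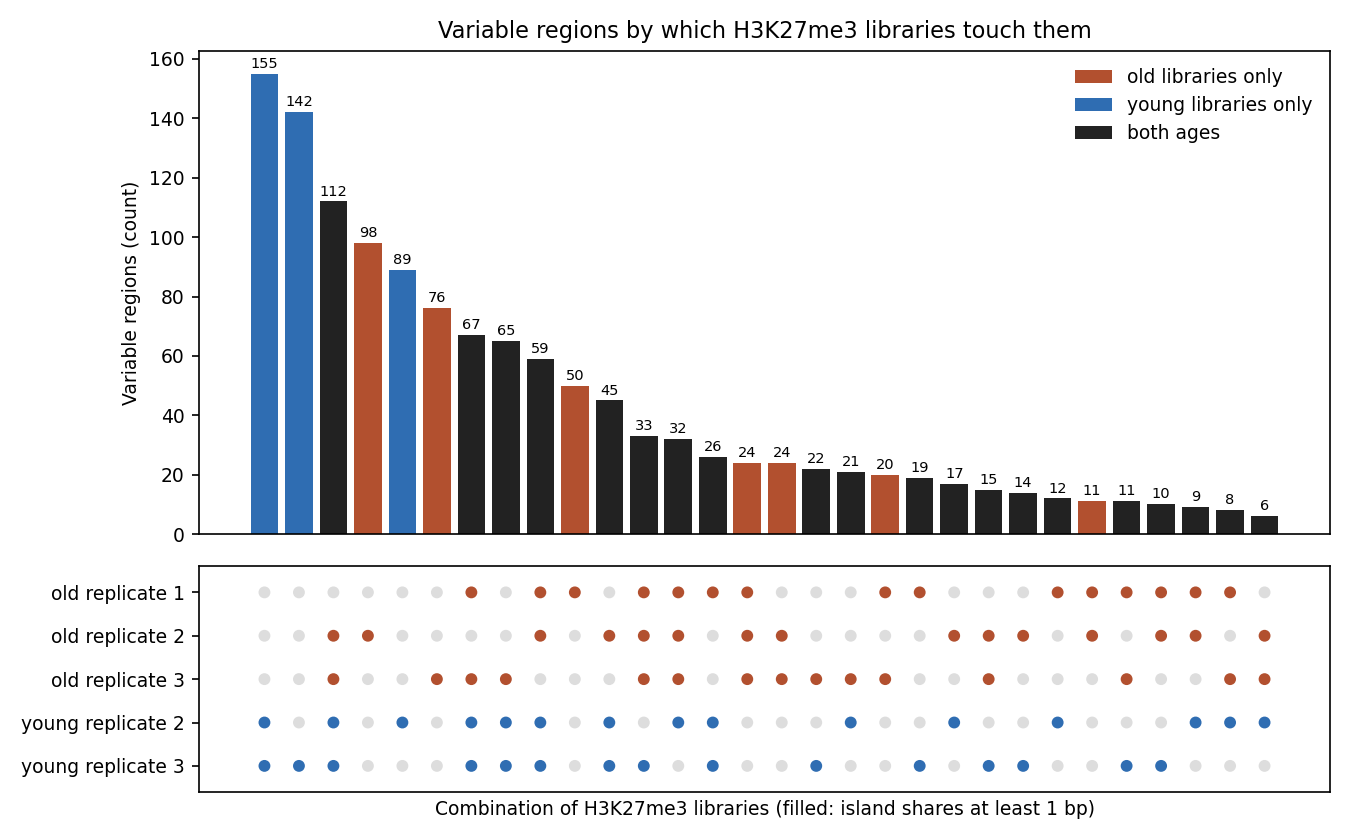
Number of variable regions (upper panel, counts) for each combination of H3K27me3 libraries that touch them (filled dots, lower panel). The pair of young libraries is the tallest column with 155 regions, and the 3 old libraries without a young one hold 24. These columns ask for unlike numbers of touching libraries, so their counts are not alike.

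Each young library touched more of the variable regions than any old one. Old replicates 1, 2 and 3 touched 391, 509 and 536 of the 1292, a mean of 479 ± 77.1 (SD, n = 3). Young replicates 2 and 3 touched 723 and 795, a mean of 759 ± 50.9 (SD, n = 2). The excess in young was present within both title numbers found at the 2 ages. Within title number 18, 229 regions were touched in old but not young and 443 in young but not old, and within title number 20 these counts were 211 and 470. The lists of a title number held like numbers of islands, 17752 in old and 18741 in young for number 18, and 47197 in old and 45846 in young for number 20. The excess was not stable to the choice of islands. With only islands at or above the median score of their list, the counts were 261 in old but not young and 243 in young but not old for title number 18, which turned the direction, and 233 and 330 for title number 20, which kept it. With equal numbers of islands they were 232 and 424 for number 18, and 227 and 280 for number 20.

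Islands over variable regions were weaker and shorter than those over stable regions in every library. Median lengths of the islands that touched variable regions were 4000, 7400 and 3700 bp in old replicates 1, 2 and 3, and over stable regions the same libraries had 8200, 12400 and 8400 bp. The young medians were 4400 bp in replicate 2 and 3400 bp in replicate 3 over variable regions, and 9000 and 8000 bp over stable ones. The score of an island was ranked as the percentage of islands in its list with a lower score. Its median was 76.4, 64.3 and 80.6 over variable regions in old replicates 1 to 3, against 94.6, 88.8 and 95.9 over stable ones. In young replicates 2 and 3 it was 51.3 and 67.9 over variable regions and 89.0 and 95.1 over stable ones. Membership and these ranks come from the same islands and are not independent of each other.

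A touched variable region was often only partly covered. It lay wholly under islands in 32.7, 54.0 and 36.4% of cases in old replicates 1, 2 and 3, against 81.4, 90.0 and 80.2% of stable regions. In young replicates 2 and 3 the shares were 48.5 and 36.9% of variable regions and 85.7 and 82.8% of stable ones. Islands covered less than 50% of the region in 41.9, 27.5 and 37.9% of the variable regions touched in the old libraries, and in 17.2 and 28.9% of those touched in the young ones.

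Over most variable regions, the libraries that did not touch them had no island nearby either. For 727 of the 1292 (56.3%), none of the libraries that left the region untouched had an island within 5 kb of it. For 256 (19.8%), every such library had an island within 5 kb, and for 106 of these within 1 kb. The remaining 309 (23.9%) had islands that near in some of the other libraries. Among the 303 regions touched by 4 libraries, the fifth had an island within 5 kb in 104 (34.3%). An untouched variable region had an island within 5 kb in 31.7, 16.3 and 38.6% of cases in old replicates 1 to 3 and in 25.1 and 44.7% in young replicates 2 and 3. For free regions the same shares were 6.57, 5.07 and 7.76% in old and 3.75 and 7.03% in young libraries, so libraries that did not touch a variable region had islands near it more often than near free regions.

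**Figure D2:**
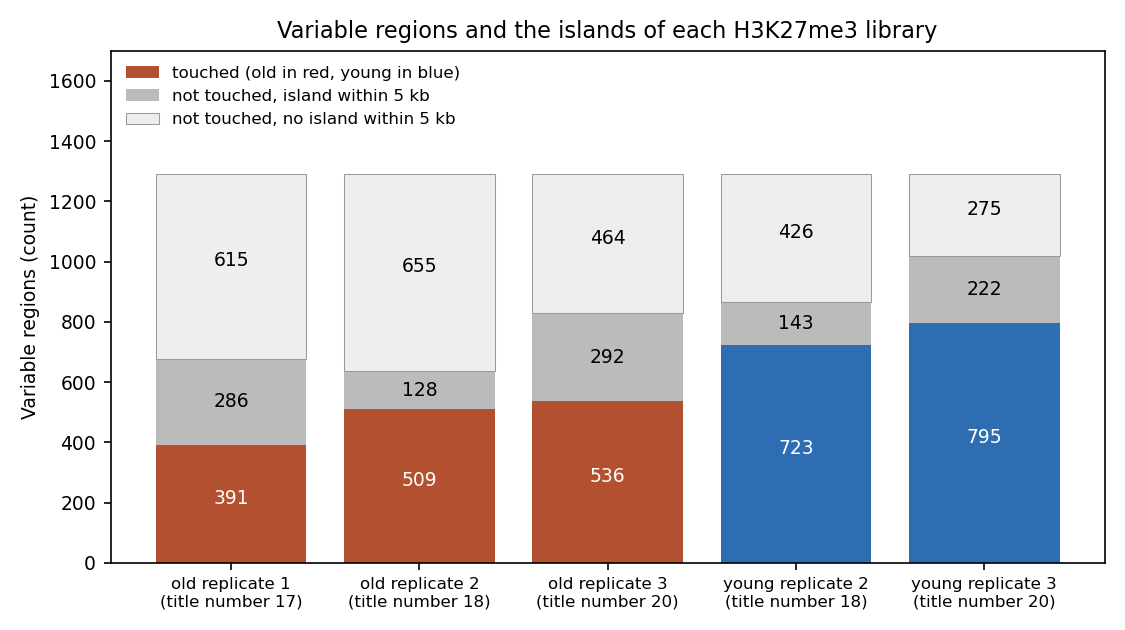
Variable regions (counts, of 1292) in each H3K27me3 library, split into those touched by an island, those untouched with an island within 5 kb, and those with none that near. Touched regions number 391 to 536 in the old libraries and 723 and 795 in the young ones.

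The rule turns on a single shared base pair, and some members lie at that edge. In 82 variable regions the longest stretch under islands in any library was under 200 bp, the width of 1 cell of the island grid, and in 18 it was at most 50 bp. Just outside, 92 free regions had an island within 200 bp of them, and 29 stable regions had under 200 bp covered in at least 1 library. Of the regions touched by 4 libraries, 22 had an island of the fifth within 200 bp.

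The 155 regions touched by both young and no old libraries stood mostly far from old islands. Their median gap to the nearest old island was 18597 bp, and 114 (73.5%) had none within 5 kb in any of the 3 old libraries. For the 160 regions touched by the other pairs, none of the remaining 3 libraries had an island within 5 kb in 62 (38.8%). Those libraries always include a young one, and libraries differ in how often an untouched variable region has an island within 5 kb. That share ran from 16.3% in old replicate 2 to 44.7% in young replicate 3. Membership and gaps come from the same islands, and the difference between these sets was not tested. Over the 155 regions the median island measured 3600 bp in young replicate 2 and 3200 bp in young replicate 3, at median score percentiles of 41.6 and 63.6. They covered the whole region in both libraries in 35 cases. This set shrank to 89 regions with equal numbers of islands and to 64 with the stricter island threshold, where the old-only set held 23 and 29.

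The 8 regions named here had the longest H3K4me3 among the young-only ones that lay wholly under islands in both young libraries and had no old island within 5 kb. They lie, in order of H3K4me3 length, on chromosome 4 at 13669554 to 13672359, chromosome 4 at 116548885 to 116551719, chromosome 11 at 114711689 to 114714681, chromosome 4 at 140856612 to 140859299, chromosome 10 at 93103059 to 93105505, chromosome 5 at 137790113 to 137792793, chromosome 8 at 107792235 to 107794496 and chromosome 9 at 100469976 to 100472104. The first lay farthest from old H3K27me3. Its nearest old islands were 175153, 1395640 and 581953 bp away in old replicates 1, 2 and 3, while it lay under a 3200 bp island in young replicate 2 and a 6000 bp one in young replicate 3. The third lay under a 9600 bp island in young replicate 2 and a 5600 bp one in young replicate 3, and its nearest old island was 53688 bp away. The second lay nearer, with old islands 10684, 13084 and 12284 bp away. By the rule all 8 had H3K4me3 at both ages. The first was covered over 2559 and 2714 bp in old replicates 7 and 8, against 2232 and 2290 bp in young replicates 7 and 8. Both old values exceeded both young ones in 4 of these 8 selected regions, against 17.4% of the whole young-only set and 12.6% of all regions held by the 4 lists, and limma called none of the 8. Mean log2 length was higher in old for 56.1% of the young-only set and 47.0% of all regions held by the 4 lists. Of the 8, the region on chromosome 10 had the lower mean in old libraries and averaged 2018 ± 22.6 bp at 24 months and 2306 ± 200.1 bp at 4 months (SD, n = 2 each). No H3K36me3 peak lay within 5 kb of 5 of the 8 in any of the 6 H3K36me3 libraries.

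Young islands often lay beside the 24 regions touched by all old and no young libraries. In 11 (45.8%) both young libraries had an island within 5 kb, and in 8 (33.3%) neither had. For the 195 regions touched by other sets of 3 libraries, these shares were 18.5 and 63.1%. Membership and gaps come from the same islands, and the difference was not tested. The median gap to the nearest young island was 1905 bp. In 8 cases 50% or more of the region lay under islands in each old library. Of the 5 with the highest cover, those on chromosome 14 at 60795279 to 60797042, chromosome 12 at 107200329 to 107202001 and chromosome 1 at 93262554 to 93263653 had an island of young replicate 3 within 878, 1328 and 1153 bp. Those on chromosome 9 at 117160304 to 117162075 and chromosome 3 at 126864351 to 126865794 had no young island within 26103 and 26806 bp. The region on chromosome 9 lay under islands of 4200, 8600 and 3800 bp in old replicates 1, 2 and 3. Its H3K4me3 covered 1472 and 1543 bp in old replicates 7 and 8, against 1772 and 1613 bp in young replicates 7 and 8. The regions on chromosomes 14, 12, 9 and 3 had no H3K36me3 peak within 5 kb in any library, while that on chromosome 1 had one in 4 of the 6.

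**Figure D3:**
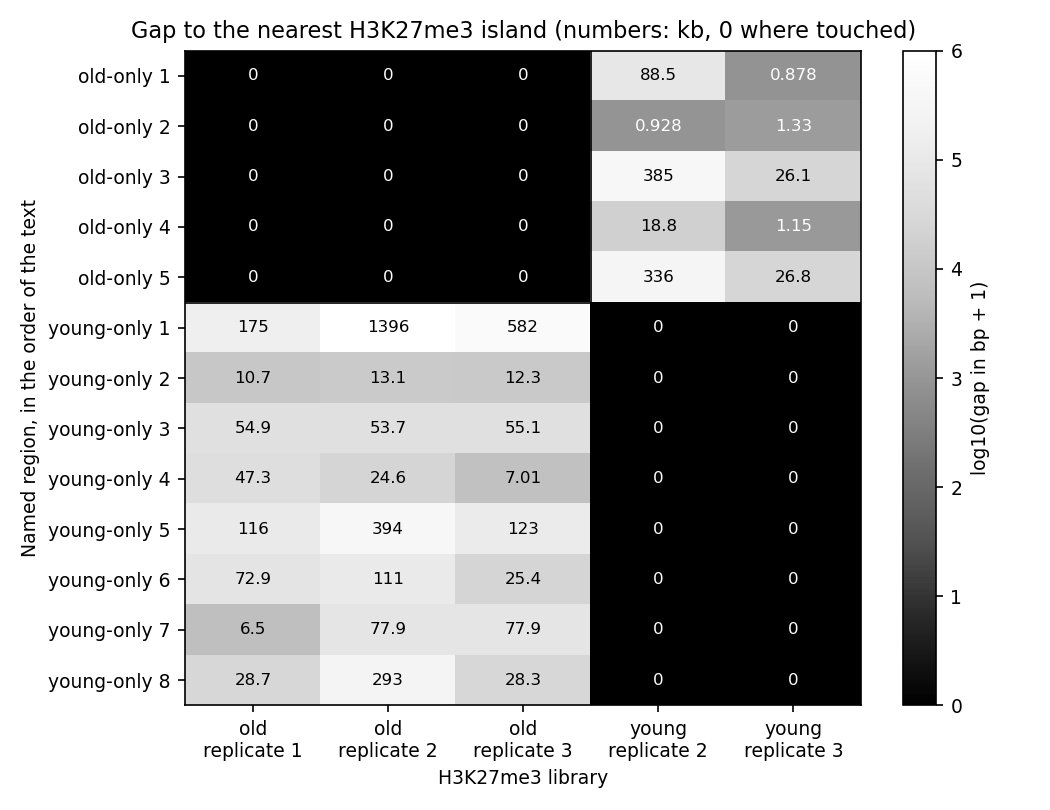
Gap between each named single-age region and the nearest H3K27me3 island of each library (numbers in kb, shade on a log10 scale, 0 where an island touches), with old-only regions above young-only ones and each set in order of cover and then H3K4me3 length (old-only: chromosomes 14, 12, 9, 1, 3). Young islands lie within 1328 bp of 3 of the 5 old-only regions, and the nearest old island to any of the 8 young-only ones is 6504 bp away. Only the young-only regions were selected for having no island of the other age within 5 kb, so the gaps of the 2 sets are not to be compared.

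The longest H3K4me3 domains among the variable regions differed in how H3K27me3 met them. The longest, on chromosome 6 at 52169644 to 52185438, was touched at an edge by islands of 44200 and 44000 bp in old replicates 2 and 3, which covered 6.6 and 14.2% of it. Old replicate 1 and young replicates 2 and 3 had islands 162, 562 and 162 bp away, so all 5 libraries had an island on this domain or within 562 bp of it. The longest region touched by a single library, on chromosome 17 at 23809814 to 23814948, was likewise touched in old replicate 2 alone, with islands of the other 4 libraries within 52 to 452 bp. Others were not of this kind. On chromosome 6 at 84533312 to 84540451, islands of young replicates 2 and 3 covered 58.8 and 25.2% of the region, while old replicates 1, 2 and 3 had no island within 84111, 190711 and 87511 bp. On chromosome 12 at 86812563 to 86818064, islands of young replicates 2 and 3 covered 54.5 and 36.4%, and the nearest old island was 269536 bp away. On chromosome 14 at 47004619 to 47010669, touched by all but young replicate 3, H3K4me3 covered 5587 and 6051 bp in old replicates 7 and 8, against 4965 and 3401 bp in young replicates 7 and 8, so both old values lay above both young ones. Its islands covered 16.5, 95.9 and 13.2% of it in old replicates 1, 2 and 3 and all of it in young replicate 2.

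Among the other long domains, 2 on chromosome 4 were touched by young replicate 3 alone. At 55542283 to 55547116 its 3400 bp island covered 70.3% of the region, and the next nearest island, in young replicate 2, was 7084 bp away. At 45540630 to 45545696 a weak island of 1000 bp, at the 1.70 percentile of scores, covered 19.7%, and no other library had an island within 79304 bp. On chromosome 13 at 63663533 to 63670058 islands covered 0.889% in old replicate 2 and 16.2 and 10.1% in young replicates 2 and 3, with islands 542 and 742 bp away in old replicates 1 and 3. On chromosome 9 at 63864654 to 63871261 islands covered 33.3% in old replicate 3 and 15.1 and 21.2% in young replicates 2 and 3, and old replicates 1 and 2 had none within 87653 bp. Its H3K4me3 covered 4241 and 5373 bp in old replicates 7 and 8, both below the 6055 and 6130 bp in young replicates 7 and 8. On chromosome 6 at 92889636 to 92894535 islands covered 35.4% in old replicate 1, 100% in young replicate 2 and 72.1% in young replicate 3, and old replicates 2 and 3 had none within 150835 bp. The last 2 were missed by old replicate 2 alone. On chromosome 4 at 54957592 to 54963053 the other 4 libraries covered 29.5 to 40.4% and the nearest island of old replicate 2 was 257147 bp away, whereas on chromosome 9 at 20833667 to 20838518 they covered 35.4 to 43.7% and old replicate 2 had an island 282 bp away. These 12 long domains included ones beside islands of every library and ones far from any island of the libraries that missed them.

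H3K4me3 over variable regions was intermediate between free and stable regions. The share of regions with a score of at least 3100 was lower the more H3K27me3 libraries touched them. Scores of the H3K4me3 lists pile up at 3100, so the share of regions with a score of at least 3100 was used. Among regions touched by 1 library it was 50.8 and 49.2% in old replicates 7 and 8 and 52.7 and 53.8% in young replicates 7 and 8. Among those touched by 4 it was 34.0 and 28.7% in old and 37.0 and 36.6% in young libraries. Free regions had 73.5 and 73.9% in old and 73.8 and 74.5% in young libraries, and stable regions 19.4 and 16.3% in old and 20.3 and 19.9% in young libraries. The order free, variable, stable thus held in all 4 libraries. The merged variable regions measured 1771 bp in the median, free ones 2105 bp and stable ones 1623 bp. The young-only set had higher shares than the regions of the other pairs of libraries, 56.1 and 56.8% against 41.2 and 40.6% in old replicates 7 and 8, and 53.5 and 51.6% against 42.5 and 44.4% in young replicates 7 and 8. The young-only regions were also longer, with a median of 2084 bp against 1639 bp for the other pairs. These differences across regions were not tested, since regions of a library are not replicates.

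**Figure D4:**
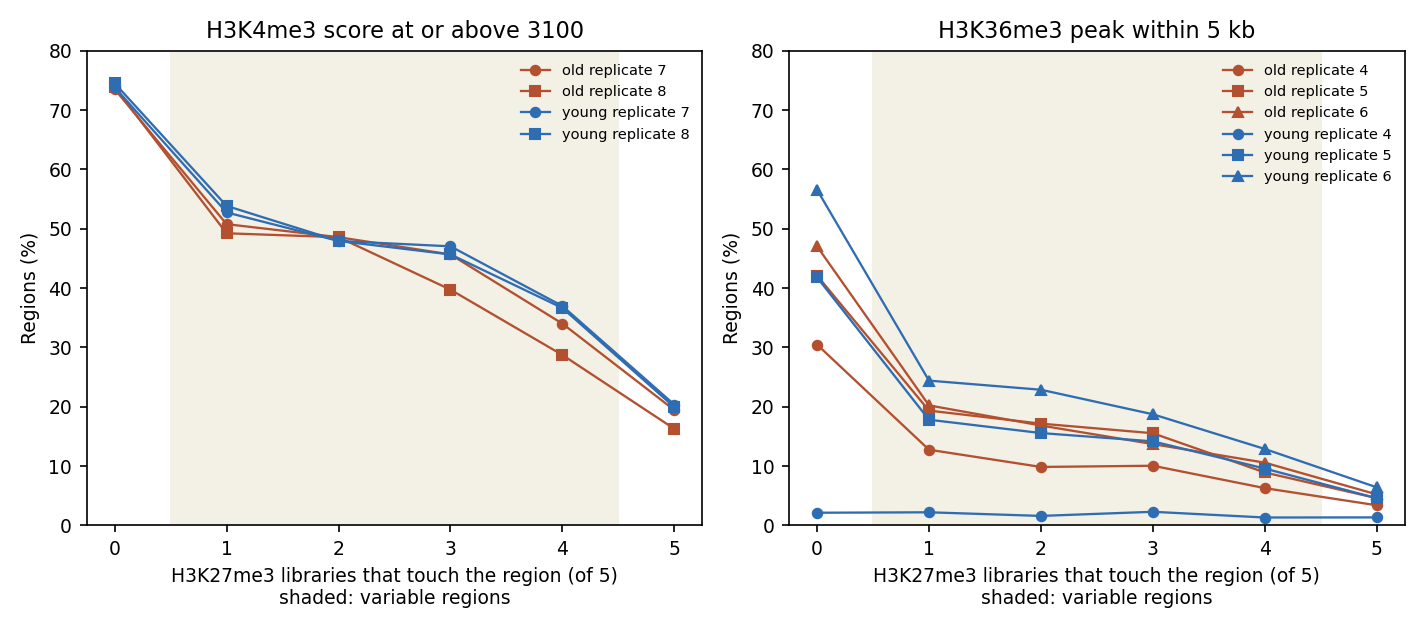
Share of regions (%) with an H3K4me3 score of at least 3100 (left) and with an H3K36me3 peak within 5 kb (right), by the number of H3K27me3 libraries, of 5, that touch the region. Each line is 1 library, and the shaded part holds the variable regions. In all libraries but young H3K36me3 replicate 4 the share is highest in free regions and lowest in stable ones.

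The length of H3K4me3 over variable regions did not separate the ages. The median covered length was 1361 and 1531 bp in old replicates 7 and 8, against 1550 and 1397 bp in young replicates 7 and 8, so the ages overlapped. The median log2 change (old over young, on log2(bp + 200)) was -0.02 over the variable regions and 0.01 over all 17307 regions tested. Over the 14489 regions held by all 4 lists it was -0.01. Limma called 0 of the 1292 at an adjusted p under 0.05, with 0% called over all regions. At an unadjusted p under 0.05, 24 (1.86%) were longer and 19 (1.47%) shorter in old libraries, against 6.04 and 1.2% of all regions tested, or 7.24% in both directions. That background includes regions missing from 1 or 2 lists, and among the 14489 held by all 4 lists the shares were 1.70 and 1.07%. Without old replicate 7, limma called 3 of the 1292 (0.232%), all longer in old, against 0.578% of all regions tested in that fit, which has a single old library that is assumed to vary like the young pair. H3K4me3 was longer in each old library than in either young one in 157 variable regions (12.2%) and shorter in 222 (17.2%), close to the 12.6 and 16.2% of all regions held by the 4 lists. In the young-only set they were longer in 27 of 155 regions (17.4%) and shorter in 17 (10.97%), with a median log2 change of 0.02. In the old-only set they were longer in 1 of 24 (4.17%) and shorter in 6 (25.0%), with a median log2 change of -0.08. For the other pairs of libraries these shares were 9.38 and 21.9%, and for stable regions 19.6 and 12.3%.

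The 3 variable regions with the smallest p for H3K4me3 length in each direction did not pass correction. Their groups did not overlap, which choosing by p on the same lengths favours. The region on chromosome 10 at 69386758 to 69389820, touched by young H3K27me3 replicate 3 alone, was covered over 2312 and 2759 bp in old replicates 7 and 8, against 1342 and 1146 bp in young replicates 7 and 8. Its log2 change was 0.92 ± 0.15 (SE), with an adjusted limma p of 0.348 that ranged from 0.00233 (without old replicate 7) to 0.775 over the alternatives. The region on chromosome 3 at 86349539 to 86352896 belongs to the young-only set and was covered over 2873 and 3358 bp in old libraries, against 1711 and 2077 bp in young ones. Its log2 change was 0.66 ± 0.14 (SE), with an adjusted limma p of 0.348 (0.0204 to 0.775 over the alternatives, lowest without old replicate 7). On chromosome 19 at 45153774 to 45155944, touched by old H3K27me3 replicate 2 alone, the lengths were 1499 and 1897 bp in the old libraries, against 833 and 675 bp in the young ones. The other 3 regions were shorter in both old libraries. On chromosome 19 at 31836768 to 31840254 H3K4me3 covered 2459 and 2585 bp in the old libraries, against 3356 and 3487 bp in the young ones, a log2 change of -0.41 ± 0.08 (SE) with an adjusted limma p of 0.348. On chromosome 2 at 173099138 to 173103505 it covered 3318 and 3370 bp in the old libraries, against 4174 and 4253 bp in the young ones, and on chromosome 13 at 105843396 to 105845567 it covered 1422 and 1497 bp in the old libraries, against 2172 and 1952 bp in the young ones.

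**Figure D5:**
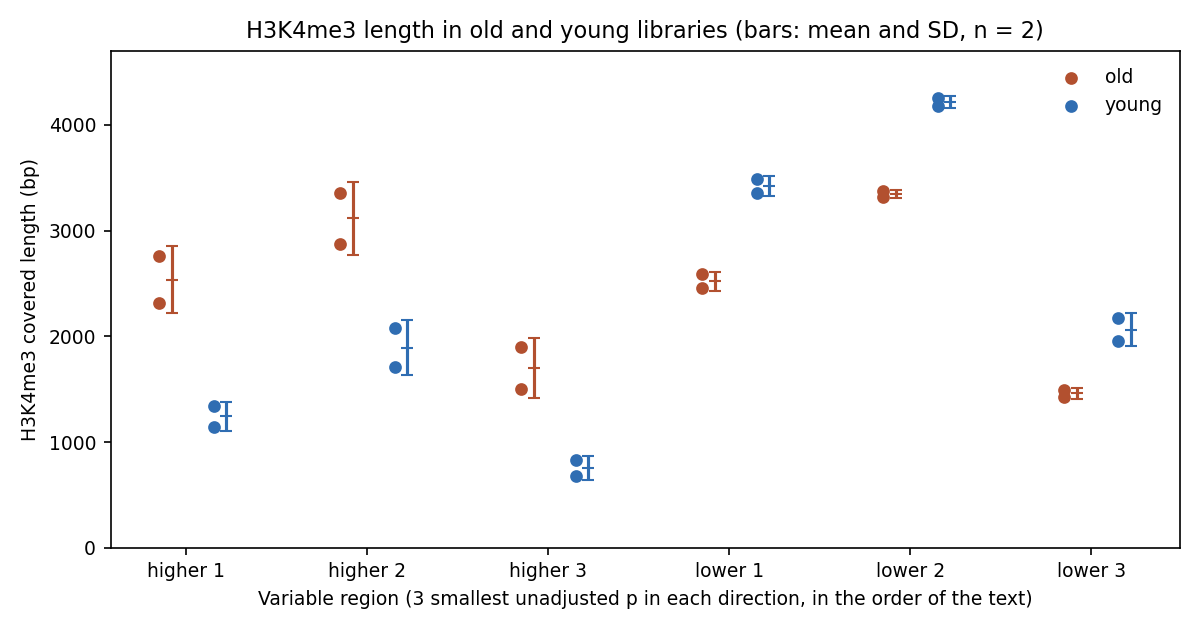
H3K4me3 covered length (bp) in the 3 variable regions with the smallest unadjusted limma p among those longer in old libraries (chromosomes 10, 3 and 19) and the 3 among those shorter (chromosomes 19, 2 and 13). Points are libraries and bars the mean and SD of 2. In every region the 2 old values lie on one side of the 2 young ones, which choosing by p favours, and no region passed at an adjusted p of 0.05.

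H3K36me3 lay near fewer variable regions than free ones and near more of them than stable ones. A peak lay within 5 kb of 10.1, 15.7 and 16.02% of the variable regions in old H3K36me3 replicates 4, 5 and 6, and of 1.86, 14.7 and 20.4% in young replicates 4, 5 and 6. For free regions the shares were 30.5, 42.1 and 47.0% in old and 2.12, 41.8 and 56.6% in young libraries, and for stable regions 3.38, 4.57 and 5.21% in old and 1.34, 4.57 and 6.40% in young libraries. Among variable regions, the share in old replicates 4 to 6 was 12.7, 19.3 and 20.2% where 1 H3K27me3 library touched and 6.27, 8.91 and 10.6% where 4 did. In young replicates 5 and 6 it was 17.8 and 24.4% for 1 library and 9.57 and 12.9% for 4. Peaks on the region itself were rare, in 0.464 to 1.39% of variable regions in old and 0.387 to 2.01% in young libraries. Old and young did not separate: the mean share within 5 kb was 13.9 ± 3.36% in old and 12.3 ± 9.48% in young libraries (SD, n = 3 each), and 17.5 ± 4.00% in young ones (SD, n = 2) without replicate 4, which turned the direction of the difference.

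Regions whose other libraries came near had H3K36me3 more often than isolated ones. Where every library that left the region untouched had an island within 5 kb, an H3K36me3 peak lay within 5 kb of 14.5, 23.0 and 22.3% of the 256 regions in old replicates 4 to 6 and of 1.95, 20.3 and 26.6% in young replicates 4 to 6. Where none had, the shares of the 727 regions were 7.15, 11.7 and 12.7% in old and 1.38, 12.2 and 17.1% in young libraries. The H3K4me3 share at 3100 or above was also higher, 48.4 and 43.4% against 40.9 and 38.5% in old replicates 7 and 8 and 48.4 and 49.6% against 43.5 and 43.1% in young replicates 7 and 8. Within a library pair of 1 age and title number, H3K36me3 was near 13.0 and 15.7% of the variable regions touched in old H3K27me3 replicates 1 and 2, against 16.9 and 16.2% of those untouched. For young H3K27me3 replicates 2 and 3 the shares were 13.7 and 18.4% of touched and 15.99 and 23.5% of untouched regions, so the touched share was the lower one in 4 of 4 such pairs. Regions touched in a library also tend to be touched by more libraries. The H3K36me3 share was lower where more libraries touched, so these pairs are no separate evidence.

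The length of H3K36me3 within 5 kb could be tested for 245 of the 1292 variable regions, those covered in at least 2 of the 6 libraries. Limma called 0 of them at an adjusted p under 0.05 and none had an unadjusted p under 0.05, against 0% called over all 7654 regions tested and 0.17% at the unadjusted threshold, of which 0.131% were longer and 0.0392% shorter in old. Within the title numbers found at both ages, limma called 8 of 177 variable regions (4.52%), all higher in old, against 5.46% of all 6027 regions tested in that fit, which includes young replicate 4. The smallest p belonged to the region on chromosome 11 at 3004442 to 3006404, with 3587, 2016 and 0 bp of H3K36me3 within 5 kb in old replicates 4, 5 and 6, against 0 bp in all 3 young libraries. On chromosome 2 at 18602020 to 18603405 it covered 1066, 1124 and 693 bp in old libraries, and on chromosome 11 at 82743476 to 82747647 it covered 988, 1330 and 587 bp, against 0 bp in all 3 young libraries at both. The adjusted limma p was 0.9996 for each of these 3, and over the alternatives it was lowest at 0.331 for the first. For the other 2 it was lowest, at 0.0205 and 0.0372, within the title numbers found at both ages. In the other direction, H3K36me3 covered 0 bp in the 3 old libraries and 0 bp in young replicate 4 near 3 regions, while young replicates 5 and 6 had 920 and 1334 bp near chromosome 7 at 90013401 to 90017938, 309 and 2960 bp near chromosome 4 at 117164891 to 117170123, and 290 and 3048 bp near chromosome 8 at 73929353 to 73930798. The regions named here for H3K36me3 were chosen by small p. Each passed the filter of at least 2 covered libraries through 1 age only, so the 0 values at the other age are no separate support. In the young-only set a peak lay within 5 kb of 12, 25 and 30 of the 155 regions in old replicates 4, 5 and 6, against 2, 27 and 37 in young replicates 4, 5 and 6, and the ages overlapped.

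The variable regions were spread over the genome. They made up between 7.49 and 12.3% of the regions held by all 4 H3K4me3 lists on each autosome and 4.48% on the X chromosome. Only 41 neighbouring pairs lay at most 10 kb apart, and 18 of these pairs were touched by the same libraries. A stable region lay within 10 kb of 43 variable regions (3.33%) and of 0.807% of the free ones. Of the variable regions, 60 (4.64%) lay in a merged H3K27me3 domain that also held a stable region.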

How the data were processed

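Each library came as a list of called peaks that carries a score. CASAVA 1.4, SICER, MACS and build mm9 are named, per the submitters' processing notes. Caller versions, aligner, controls, thresholds and the unit of the score: not given in the sources used here. Scores, as the authors deposited them, were used to rank peaks within a list, to tighten a list to scores at or above its median (the stricter thresholds) or to the same number of islands, and to count H3K4me3 peaks at 3100 or above. H3K27me3 lists lie on a 200 bp grid and their end positions were taken as inclusive. Positions are printed 1-based.

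Covered lengths per merged H3K4me3 region were tested with limma 3.58.1 (R 4.3.3) on log2(bp + 200), with trend, over regions covered in at least 2 libraries and with Benjamini-Hochberg adjustment at 0.05. H3K36me3 was measured in the region and 5 kb on each side. Interval code (Python 3.11.15, numpy 2.4.6, pandas 2.3.3) and limma steps were tested on simulated data. Named regions were the 8 young-only regions with the highest island cover (ties by H3K4me3 length) among those with no old island within 5 kb, the 5 old-only regions with the highest cover, whatever lay near, the 3 with the longest H3K4me3 for each number of touching libraries, and the 3 smallest limma p in each direction for each mark. This naming rule also allowed regions at listed genes, which were not named because no mm9 annotation was used. The members, lists and tests were chosen with earlier results of these data known. Alternatives are given in the closing section.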

Additional observations from a re-analysis of the deposited data

Results flagged for a closer look

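Young H3K27me3 replicate 1 was in none of the comparisons. Its islands touched 27 of the 1292 variable regions (2.09%, exact 95% binomial interval 1.38 to 3.03%). That share was above 0.232%, the limit for a count of 0 taken as 3 divided by the number of regions. This was the reason to list it. Of all 14489 regions held by the 4 H3K4me3 lists they touched 214 (1.48%), a share within that interval. They touched 80 free regions (0.679%) and 107 stable ones (7.53%). Within the variable regions the share was 1.54, 1.27, 2.28 and 3.63% for those touched by 1, 2, 3 and 4 of the other libraries. Young replicate 1 touched 0 of the 24 old-only regions (exact 95% binomial interval 0 to 14.2%) and 2 of the 155 young-only ones (1.29%). The intervals treat regions as independent and cover counting error only.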

How the results depend on the processing

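The 1292 variable regions became 492 with the stricter H3K4me3 threshold, 2686 with young replicate 1 included, and 672 and 681 within title numbers 18 and 20; leaving out 1 library gave 1118 to 1367. The 155 young-only regions became 64 with stricter islands, 89 with equal numbers of islands, 68 with stricter H3K4me3, 2 with young replicate 1 included, 443 and 470 within title numbers 18 and 20, and 155 to 297 without 1 library (297 without young replicate 2, 244 without young replicate 3). The 24 old-only regions became 12 where islands had to cover at least 50% of the region, 7 with stricter H3K4me3, 229 and 211 within title numbers 18 and 20, and 24 to 57 without 1 library (56 and 57 without young replicates 2 and 3, 48 and 44 without old replicates 1 and 2). Adding a library, leaving out libraries or asking for 2 in place of 5 changes these counts by construction. Young replicate 1 touched 107 of the 1421 stable regions and 2 of the 155 young-only ones, so including it made most stable regions variable. The cause of the other changes was not tested. Of the regions touched by 1 library of title number 18, the share touched in young was 65.9%, and 69.8% with at least 50% covered, 59.1% with an island within 1 kb and 48.2% with stricter islands. For title number 20 it was 69.0%, and 62.9% with an island within 1 kb, 58.6% with stricter islands, 55.2% with equal numbers of islands and 72.7% with stricter H3K4me3. Limma calls for H3K4me3 among the variable regions were 0 to 3 without 1 library (3 without old replicate 7, or 0.232%, against 0.578% of all regions), and for H3K36me3 8 within title numbers 16 and 18 (4.52%, against 5.46% of all regions). The median log2 change of H3K4me3 length was -0.15 within title number 18 and -0.09 to 0.07 without 1 library (0.07 without old replicate 7, 0.04 without young replicate 7). The share of variable regions with H3K36me3 within 5 kb, old minus young, was 1.63 percentage points, and -3.60 to 5.65 without 1 library, negative without young replicate 4. With the replicate number as a block, limma called 0 variable regions for both marks. After each age's mean was removed, libraries of the same replicate number correlated at 0.0046 for H3K4me3 and 0.17, 0.03 and 0.12 for H3K36me3. These values are over all regions tested, not the variable regions alone. For H3K36me3 the title number was shared by old and young replicates 4 (0.17), and by old replicate 6 and young replicate 5 (0.06). Libraries of unlike replicate number correlated at -0.14 to 0.06 for H3K36me3. For H3K4me3 they correlated at -0.0046, a mirror value that 2 libraries per age impose. Whether the replicate or title numbers pair the libraries cannot be told from these values. H3K4me3 fits without 1 library leave a single library at 1 age.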
